A study of Mus musculus with 8 samples.

Results

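A set of 10 genes of the machinery by which mouse cells detect foreign RNA and DNA were followed in 2 pre-B leukaemia lines that had been transfected with a synthetic microRNA duplex. They were Ddx58, Ifih1, Dhx58, Mavs, Tlr3, Tlr7, Tlr9, Myd88, Eif2ak2 and Tmem173. They were found as the non-control probes that carry these names (13 probes), and they are 10 of the 36315 gene names on the array. The question put to them was whether each line holds the RNA of the proteins that could sense a transfected duplex, in every group. The line 18-81 is a mouse pre-B cell line transformed with the Abelson murine leukaemia virus, and 70Z/3 is a mouse pre-B lymphoblast leukaemia line. The 4 groups, with 2 arrays each, were 18-81 with miR-125b, 18-81 with miR-Neg, 70Z/3 with miR-125b and 70Z/3 with miR-Neg, where miR-Neg is the control duplex. All 8 samples had received 10 nM of a synthetic duplex with a lipid reagent, a change of medium after 8 h and RNA extraction at 48 h, so the control cells also carried a transfected duplex and no untransfected cells are among the groups. The replicates came from 2 independent experiments, and each line is a single established line, so a difference between the lines describes these lines and not a class of leukaemia.

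Cells recognise foreign nucleic acids through receptors in separate compartments. In the cytoplasm the RIG-I-like receptors, the helicases RIG-I (gene Ddx58), MDA5 (Ifih1) and LGP2 (Dhx58), bind double-stranded RNA. The first of them favours short duplexes with a 5′ triphosphate. RIG-I and MDA5 signal through the mitochondrial adaptor MAVS, while LGP2 lacks the signalling domains and modulates them. In endosomes TLR3 binds double-stranded RNA, TLR7 single-stranded RNA and TLR9 DNA with unmethylated CpG, and TLR7 and TLR9 signal through the adaptor MyD88. The kinase PKR (Eif2ak2) binds double-stranded RNA and blocks translation, and STING (Tmem173) carries the signal of cytosolic DNA sensors. Several of these genes are themselves induced by interferon, which is why a cell that has sensed nucleic acid commonly holds more of their RNA.

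The microRNA miR-125b is shown because it was set against the control duplex miR-Neg, which was foreign RNA as well. RefSeq (build GRCm38.p6) lists the same mature 5p arm at 2 mouse loci, on chromosomes 9 and 16, and its seed, bases 2 to 8, is in capitals. The letters of the purchased duplexes are not given in the sources used here, so this is the natural mature strand.
mmu-miR-125b-5p: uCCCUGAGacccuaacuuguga

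The promoters are shown for the members whose levels are described together below. A RefSeq window (GRCm38.p6) of 300 bases, from 250 before to 50 after the gene start, was matched for 7 members. It was searched on both strands for GAAANNGAAA (TTTCNNTTTC on the other strand), the core letters of the interferon-stimulated response element, to which interferon regulatory factors and the interferon-activated STAT complex bind. The letters occurred in 4 of the 7 windows (Ddx58, Ifih1, Myd88 and Eif2ak2), against 3.99% of the 27025 genes with such a window. They were not found in the windows of Mavs, Tlr3 and Tlr9. No window was searched for Dhx58, Tlr7 and Tmem173, so 4 of 7 is not a share of the whole set. The match began at base 3 after the start in Ddx58 (opposite strand), at base 33 in Ifih1, at base 19 in Eif2ak2 and 40 bases before the start in Myd88. The match is in capitals below, and the Mavs window is given beside them as the one whose level differed the other way between the lines. The windows of Tlr3 and Tlr9, which also held no match, are not printed. Tlr3 read lower in the same line as the 4 genes with a match, and was well above background on no array there. For Tlr9 the difference between the lines did not pass. Dhx58 and Tlr7, without a searched window, were lower in that line too. Whether the letters account for any difference between the lines was not tested. A match of letters is a description and no evidence of binding.
Ddx58 (chr4:40239776-40240075, minus strand): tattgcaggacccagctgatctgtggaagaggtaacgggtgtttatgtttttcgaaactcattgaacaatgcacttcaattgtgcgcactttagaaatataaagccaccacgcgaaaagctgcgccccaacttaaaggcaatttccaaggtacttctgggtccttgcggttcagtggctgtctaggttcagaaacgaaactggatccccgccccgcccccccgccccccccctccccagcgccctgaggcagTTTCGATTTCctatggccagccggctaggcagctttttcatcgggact
Ifih1 (chr2:62646206-62646505, minus strand): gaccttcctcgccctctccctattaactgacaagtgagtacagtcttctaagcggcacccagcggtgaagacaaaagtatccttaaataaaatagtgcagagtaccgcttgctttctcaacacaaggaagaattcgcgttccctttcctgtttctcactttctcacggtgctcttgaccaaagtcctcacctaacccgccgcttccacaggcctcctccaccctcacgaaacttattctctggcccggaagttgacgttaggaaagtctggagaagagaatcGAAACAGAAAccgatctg
Eif2ak2 (chr17:78882523-78882822, minus strand): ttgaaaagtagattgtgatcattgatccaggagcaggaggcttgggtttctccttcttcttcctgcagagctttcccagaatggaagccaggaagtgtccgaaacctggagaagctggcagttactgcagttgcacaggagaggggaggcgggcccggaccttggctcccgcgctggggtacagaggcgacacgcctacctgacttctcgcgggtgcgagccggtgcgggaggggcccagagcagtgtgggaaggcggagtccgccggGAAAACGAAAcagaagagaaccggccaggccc
Myd88 (chr9:119339969-119340268, minus strand): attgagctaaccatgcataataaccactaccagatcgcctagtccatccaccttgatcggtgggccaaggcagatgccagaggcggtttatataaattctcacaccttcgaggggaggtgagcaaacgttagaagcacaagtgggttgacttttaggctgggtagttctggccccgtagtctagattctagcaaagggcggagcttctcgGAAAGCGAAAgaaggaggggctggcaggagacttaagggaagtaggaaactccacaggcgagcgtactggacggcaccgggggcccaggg
Mavs (chr2:131233813-131234112, plus strand): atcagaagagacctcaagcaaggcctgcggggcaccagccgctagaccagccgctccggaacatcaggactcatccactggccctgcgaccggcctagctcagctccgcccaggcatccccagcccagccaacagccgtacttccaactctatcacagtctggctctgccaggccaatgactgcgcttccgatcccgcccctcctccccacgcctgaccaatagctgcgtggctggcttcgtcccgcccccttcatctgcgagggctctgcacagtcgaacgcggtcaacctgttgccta

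Both lines held the RNA of most of this machinery under both duplexes. Each of the 4 groups had 9 of the 10 members well above background on both arrays, and the missing one was Tlr3 in every group. Of all gene names on the array, 46.9% passed in 18-81 with miR-125b, 46.4% in 18-81 with miR-Neg, 47.6% in 70Z/3 with miR-125b and 43.3% in 70Z/3 with miR-Neg. "Well above background" is the scanner software's own call, and a gene counted when at least 1 of its probes had it. Counting a gene only where every probe had the call left 6 members in each 18-81 group, 9 in 70Z/3 with miR-125b and 7 in 70Z/3 with miR-Neg. By the same rule 39.6% of all gene names passed in 18-81 with miR-125b, 39.4% in 18-81 with miR-Neg, 40.5% in 70Z/3 with miR-125b and 36.5% in 70Z/3 with miR-Neg. The probes that failed were the second ones of Ddx58 and Ifih1, and in 18-81 also that of Tlr7.

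Of the arrays, replicate 2 of 70Z/3 with miR-Neg was the dimmest: 38.0% of its probes were well above background, with 75% of spots under an intensity of 337.7, where the other arrays had 41.7 to 45.1% and 504 to 725.1. Pre-B markers fitted the labels, with 9 of 10 well above background in all 4 groups (among them Cd79a, Cd79b, Pax5, Ebf1, Vpreb1, Igll1, Blnk and Cd24a) and Rag1 on no array. Of 8 macrophage and monocyte markers, 4 passed in each group but 70Z/3 with miR-Neg, where 3 did. Csf1r, Itgam and Ctss passed in all 4 groups, Fcgr1 only in 18-81 and Lyz2 only in 70Z/3 with miR-125b. Adgre1 (Emr1 in the files) and Cd14 were above background on no array. The summed linear level ranged from 45.6 to 81.3 in 18-81 and from 30.8 to 46.2 in 70Z/3. Of 6 plasmacytoid dendritic markers, Siglech, Bst2, Pacsin1 and Cox6a2 were above background in all groups and Ccr9 and Klra17 in none, with summed levels of 323 to 513 in 18-81 and 209 to 367 in 70Z/3. Of the other lists, 1 of 6 granulocyte markers passed in each 18-81 group and 3 and 2 in 70Z/3 with miR-125b and miR-Neg, 4 of 6 T cell markers in each 18-81 group and 3 in each 70Z/3 group, and at most 2 of the conventional dendritic, natural killer, erythroid and stromal markers in any group. Plasmacytoid cells are known for high Tlr7 and Tlr9, and the part of such expression in the results below was not tested. In bulk RNA a lower level cannot be told apart from a smaller share of expressing cells.

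**Figure D1:**
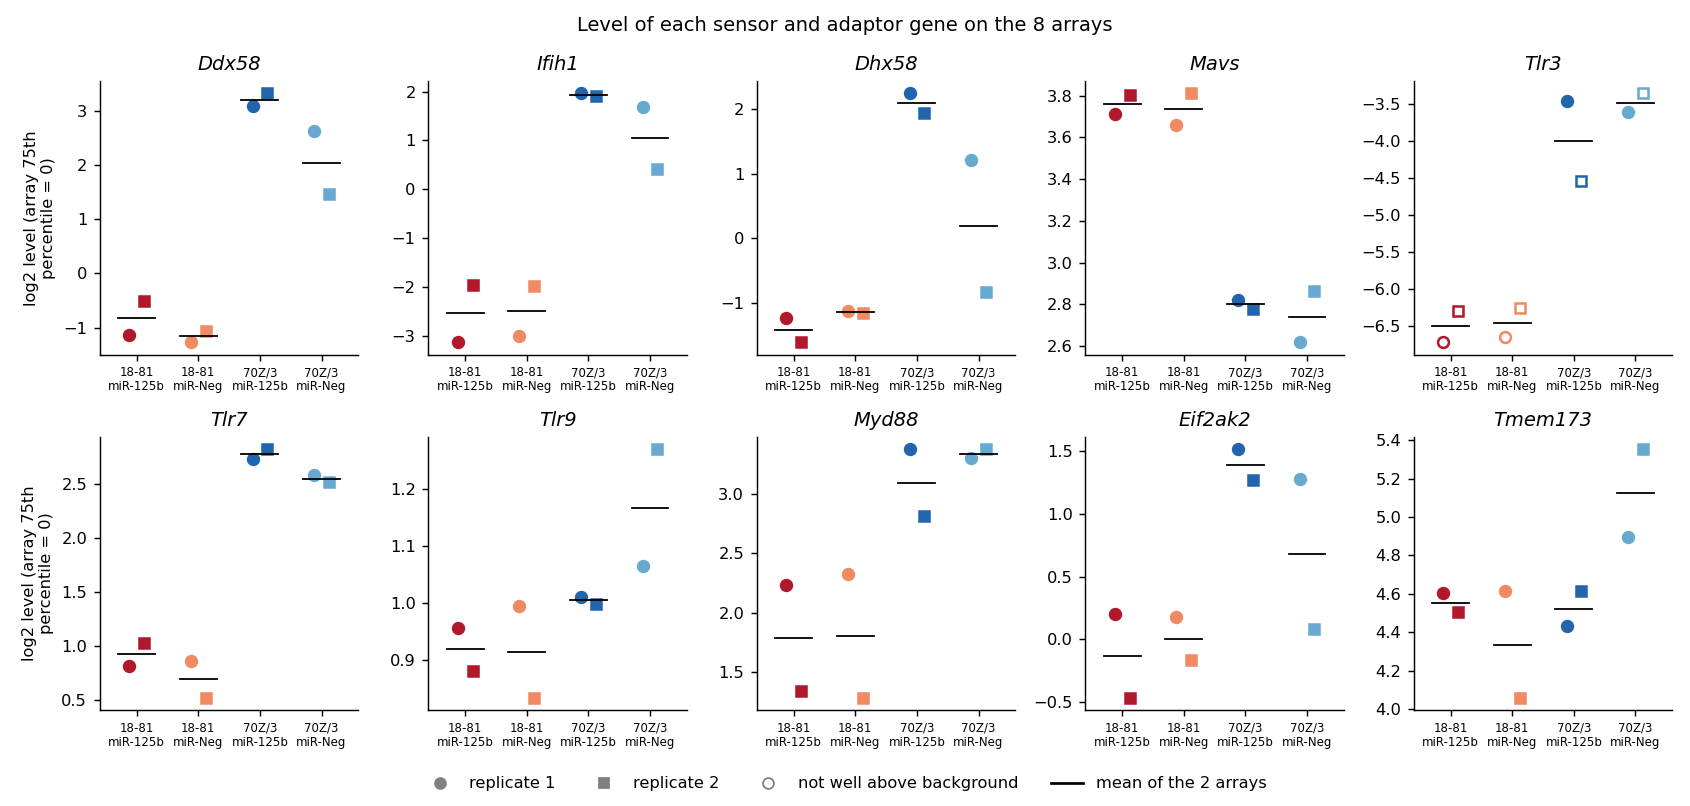
Log2 level of each of the 10 genes on the 8 arrays (y axis, with 0 at each array's 75th percentile of intensity; panels have their own ranges), for 18-81 and 70Z/3 with miR-125b and miR-Neg (x axis). Circles are replicate 1, squares replicate 2, open marks lie below the well-above-background call and bars are means of 2 arrays; Ddx58, Ifih1 and Dhx58 are low on all 4 arrays of 18-81, and Mavs is high there.

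The cytoplasmic RNA helicases were far lower in 18-81 than in 70Z/3, and their adaptor was higher. Over both duplexes 7 of the 9 members tested differed between the lines (1 higher, 6 lower in 18-81), where 31.7% of all 18790 genes did and 16.2% were lower. The median difference of the 9 was −1.42 on the log2 scale, beside 0.02 for all genes tested. The tests are from limma over all 8 arrays with Benjamini-Hochberg adjustment over all genes, errors are standard errors, and levels are log2 intensities relative to the 75th percentile of the array, at the brightest probe of a gene. The 9 members are those with a probe well above background on both arrays of a group, a filter that Tlr3 failed.

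Ddx58 (probe at chr4:40151893-40151952, minus strand, mm9) encodes RIG-I. Its log2 level was −1.13 and −0.52 in 18-81 with miR-125b, −1.27 and −1.05 in 18-81 with miR-Neg, 3.08 and 3.31 in 70Z/3 with miR-125b and 2.62 and 1.46 in 70Z/3 with miR-Neg. All 4 arrays of 18-81 lay below all 4 of 70Z/3, and the lowest array of 70Z/3 was replicate 2 of miR-Neg. The level was 12.2-fold lower in 18-81 (log2 difference −3.61 ± 0.30, limma adjusted p = 3.5e-05). Within each duplex it was 16.2-fold lower with miR-125b (adjusted p = 0.000226) and 9.21-fold lower with miR-Neg (adjusted p = 0.000885).

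Ifih1 (chr2:62435507-62435566, minus strand) encodes MDA5, which favours long double-stranded RNA. Its level was −3.13 and −1.95 in 18-81 with miR-125b, −2.99 and −1.98 in 18-81 with miR-Neg, 1.96 and 1.91 in 70Z/3 with miR-125b and 1.67 and 0.42 in 70Z/3 with miR-Neg. The lines did not overlap, and in 18-81 the replicate 2 arrays were above those of replicate 1 with either duplex. The difference of −4.0 ± 0.40 (limma adjusted p = 0.000108), a 16.0-fold lower level, had the largest size among the members tested at their brightest probes.

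Dhx58 (chr11:100556271-100556330, minus strand) encodes LGP2. Its level was −1.24 and −1.62 in 18-81 with miR-125b, −1.13 and −1.16 in 18-81 with miR-Neg, 2.24 and 1.94 in 70Z/3 with miR-125b and 1.22 and −0.83 in 70Z/3 with miR-Neg. All arrays of 18-81 lay below those of 70Z/3, but replicate 2 of 70Z/3 with miR-Neg came close: its pair differed by −0.33, and the other pairs by −2.35, −3.48 and −3.55. The lines differed over both duplexes (−2.43 ± 0.42, limma adjusted p = 0.00259) and with miR-125b (−3.52 ± 0.59, adjusted p = 0.00315). With miR-Neg alone the difference of −1.34 ± 0.59 did not pass (adjusted p = 0.158), and it rested on the 70Z/3 arrays with miR-Neg: it was −2.37 without replicate 2 (adjusted p = 0.00345) and −0.32 without replicate 1 (adjusted p = 0.537), each time against a single array whose spread is assumed to be that of the other groups.

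Mavs (chr2:131073675-131073734, plus strand) encodes the adaptor on which RIG-I and MDA5 converge, and it was the only one of the 9 members tested with a called difference upward. Its level was 3.71 and 3.81 in 18-81 with miR-125b, 3.66 and 3.81 in 18-81 with miR-Neg, 2.82 and 2.78 in 70Z/3 with miR-125b and 2.62 and 2.86 in 70Z/3 with miR-Neg. The lines did not overlap, and the arrays of each line lay close together. Mavs was 1.97-fold higher in 18-81 (0.98 ± 0.18, limma adjusted p = 0.00428), by 0.97 in replicate pair 1 and 0.99 in pair 2. It passed with miR-125b (0.96, adjusted p = 0.0336) and with miR-Neg (1.00, adjusted p = 0.0286) as well. At least 1 of these calls within a duplex was lost, with adjusted p of 0.0512 to 0.176, when any single array other than replicate 2 of 70Z/3 with miR-Neg was left out, and both were lost with no filter on dim probes (0.127 and 0.107).

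The endosomal receptors differed among themselves. Tlr7 (chrX:163742863-163742922, minus strand), the single-stranded RNA receptor, was at 0.82 and 1.03 in 18-81 with miR-125b, 0.86 and 0.52 in 18-81 with miR-Neg, 2.73 and 2.82 in 70Z/3 with miR-125b and 2.58 and 2.52 in 70Z/3 with miR-Neg. It was 3.61-fold lower in 18-81 (−1.85 ± 0.19, limma adjusted p = 0.000133), and by nearly the same amount with miR-125b (−1.85) and with miR-Neg (−1.86).

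Tlr9 (chr9:106128979-106129038, plus strand), the CpG DNA receptor, was at 0.96 and 0.88 in 18-81 with miR-125b, 0.99 and 0.83 in 18-81 with miR-Neg, 1.01 and 1.00 in 70Z/3 with miR-125b and 1.06 and 1.27 in 70Z/3 with miR-Neg. All 8 arrays lay between 0.83 and 1.27. The difference of −0.17 ± 0.18 did not pass (limma adjusted p = 0.537), and its 95% interval ran from −0.59 to 0.25, so a difference within these limits is not excluded.

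Tlr3 (chr8:46481729-46481788, minus strand), the double-stranded RNA receptor of the endosome, was the member that failed the filter. Its level was −6.72 and −6.29 in 18-81 with miR-125b, −6.64 and −6.26 in 18-81 with miR-Neg, −3.46 and −4.55 in 70Z/3 with miR-125b and −3.60 and −3.36 in 70Z/3 with miR-Neg. No array of 18-81 was well above background, and in 70Z/3 only the replicate 1 arrays were, 1 for each duplex. Against the lowest signal that counted as well above background on each 18-81 array, Tlr3 was at least 1.59-fold lower in 18-81. It had no test in the fit.

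Myd88 (chr9:119245322-119245381, minus strand, a probe spotted 10 times on the array) encodes the adaptor of TLR7 and TLR9. Its level was 2.23 and 1.34 in 18-81 with miR-125b, 2.32 and 1.28 in 18-81 with miR-Neg, 3.38 and 2.81 in 70Z/3 with miR-125b and 3.31 and 3.38 in 70Z/3 with miR-Neg. The lines did not overlap, and in 18-81 replicate 2 lay lower than replicate 1 with either duplex. Myd88 was 2.68-fold lower in 18-81 (−1.42 ± 0.32, limma adjusted p = 0.0102). With miR-Neg the difference passed (−1.54, adjusted p = 0.0451) and with miR-125b it did not (−1.31, adjusted p = 0.0798), while a block for the replicate number gave adjusted p = 0.0176 for the difference with miR-125b. The call with miR-Neg was lost under 10 of 17 alternative settings. It was lost with quantile normalization (limma adjusted p = 0.0872), the percentile over detected probes (0.106) and the authors' series table (0.0874). No filter on dim probes (0.091) and a filter on all 8 arrays (0.0542) also lost it. The remaining settings left out replicate 1 or 2 of either 70Z/3 group or replicate 2 of 18-81 with miR-Neg.

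Eif2ak2 (chr17:79252168-79252227, minus strand) encodes PKR. Its level was 0.20 and −0.47 in 18-81 with miR-125b, 0.18 and −0.17 in 18-81 with miR-Neg, 1.52 and 1.27 in 70Z/3 with miR-125b and 1.28 and 0.09 in 70Z/3 with miR-Neg. The lines overlapped through replicate 2 of 70Z/3 with miR-Neg alone. The difference of −1.10 ± 0.31 passed (limma adjusted p = 0.0281), but the call was lost, with adjusted p from 0.0565 to 0.0934, when either replicate of 70Z/3 with miR-125b, replicate 2 of either 18-81 group or replicate 1 of 70Z/3 with miR-Neg was left out. It was also lost with no filter on dim probes (adjusted p = 0.0581) and with the percentile over detected probes (adjusted p = 0.0686). Within miR-125b the difference was −1.53 ± 0.44 (limma adjusted p = 0.0427). That call was lost under 10 of 17 alternative settings, which include leaving out single arrays. Among them were quantile normalization (adjusted p = 0.0528) and no filter on dim probes (adjusted p = 0.0871). Within miR-Neg the difference was −0.68 ± 0.44 (adjusted p = 0.34).

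Tmem173 (chr18:35893692-35893751, minus strand) encodes STING. Its level was 4.60 and 4.51 in 18-81 with miR-125b, 4.61 and 4.06 in 18-81 with miR-Neg, 4.43 and 4.61 in 70Z/3 with miR-125b and 4.90 and 5.36 in 70Z/3 with miR-Neg. The lines overlapped over both duplexes, but the 70Z/3 arrays with miR-Neg were the highest of the 8 and overlapped no other group. With miR-Neg alone the difference was −0.79 ± 0.31 and did not pass (limma adjusted p = 0.12). With miR-125b it was 0.03 ± 0.31 (adjusted p = 0.958). Over both duplexes the difference of −0.38 ± 0.22 did not pass (limma adjusted p = 0.241, 95% interval −0.89 to 0.13).

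**Figure D2:**
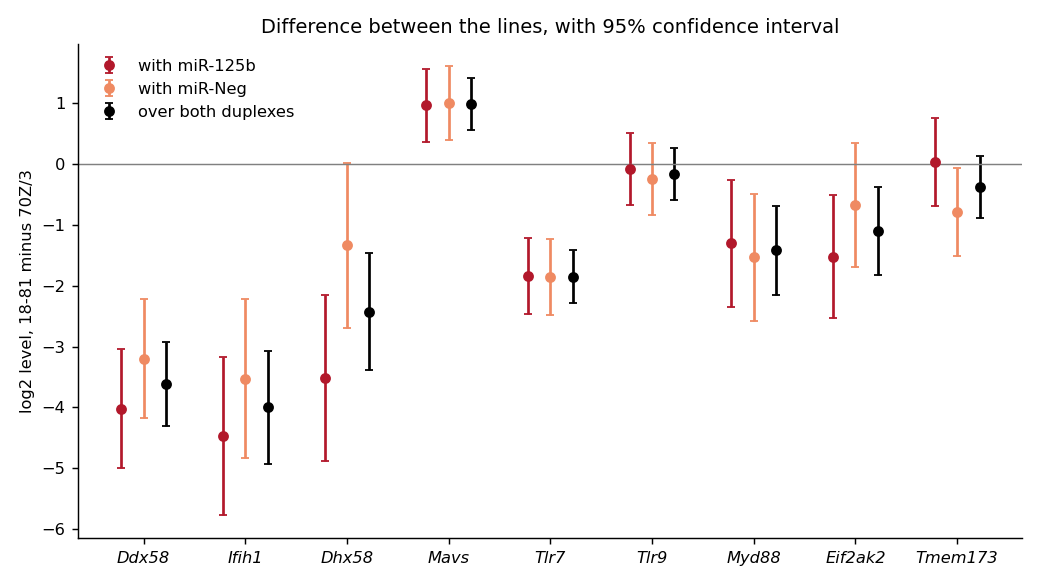
Difference in log2 level, 18-81 minus 70Z/3 (y axis), for the 9 genes tested (x axis), with 95% confidence intervals from limma, within miR-125b, within miR-Neg and over both duplexes. Over both duplexes Ddx58, Ifih1, Dhx58, Tlr7, Myd88 and Eif2ak2 lie below 0 and Mavs lies above it, while the intervals of Tlr9 and Tmem173 include 0. Within miR-Neg the interval of Tmem173 lies below 0.

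Counted within a duplex, 6 members passed with miR-125b (1 higher, 5 lower in 18-81; 21.1% of all genes) and 5 with miR-Neg (1 higher, 4 lower; 21.6% of all genes). The members common to both counts were Ddx58, Ifih1, Tlr7 and Mavs. With miR-Neg, Mavs and Myd88 both failed when replicate 1 or 2 of 70Z/3 with miR-125b was left out. The same held without replicate 1 of 70Z/3 with miR-Neg, without replicate 2 of 18-81 with miR-Neg and with no filter on dim probes. With a block for the replicate number the count over all genes moved to 9031, against 5961 without it, and the count of members stayed at 7.

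Whether the RNA of these sensors moved with the sequence of the duplex was asked within each line. In 70Z/3 the RIG-I-like receptors and PKR were higher with miR-125b than with miR-Neg in both experiments, but no member passed the test, and none of all 18791 genes did (0%; 1104 genes had an unadjusted p under 0.05). The 9 members had a median difference of 0.23, or 0.36 above the median of all genes, which was −0.13. In 4 members (Ddx58, Ifih1, Dhx58 and Tlr7) both miR-125b arrays lay above both miR-Neg arrays, where 14.9% of all genes did so, and in Tlr9 and Tmem173 both lay below, where 22.8% of all genes did so.

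Dhx58 had the largest difference, 1.89 ± 0.59 (3.72-fold; limma unadjusted p = 0.0125, adjusted p = 0.757). It was 1.02 in replicate pair 1 and 2.77 in pair 2, in which the miR-Neg array was the dim one. The value is decided by the miR-Neg arrays: without replicate 2 it was 0.87 (adjusted p = 1), and without replicate 1 it was 2.92 (adjusted p = 0.0151), where 206 of all genes passed. Both values set the miR-125b arrays against a single miR-Neg array, in the second case the dim one, whose spread is assumed to be that of the other groups. Leaving out single arrays of 70Z/3 gave 165 passing genes without replicate 2 of miR-Neg and 100 without replicate 2 of miR-125b, so the number of calls in this comparison hangs on single arrays.

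Ddx58 differed by 1.15 ± 0.42 (limma unadjusted p = 0.0263, adjusted p = 0.773), with 0.45 in pair 1 and 1.85 in pair 2. Ifih1 differed by 0.89 ± 0.56, with 0.29 and 1.49 in the pairs, and Eif2ak2 by 0.71 ± 0.44, with 0.24 and 1.18. In each of these the larger value belonged to pair 2. Without replicate 2 of miR-Neg the differences were 0.57 in Ddx58, 0.26 in Ifih1 and 0.11 in Eif2ak2, none with an adjusted p under 1.

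The adaptors and the remaining receptors showed smaller differences in 70Z/3. Mavs differed by 0.06 ± 0.26, Tlr7 by 0.23 ± 0.27, Tlr9 by −0.16 ± 0.26, Myd88 by −0.25 ± 0.45 and Tmem173 by −0.60 ± 0.31, with limma adjusted p from 0.773 to 0.945. Tmem173 was lower with miR-125b in both pairs, by −0.47 and −0.74.

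In 18-81 no such pattern was measured. No member and no gene passed (0% of 18790; 230 genes had an unadjusted p under 0.05), and no member had an unadjusted p under 0.05. The median of the members lay −0.02 from that of all genes. Ddx58 differed by 0.34 ± 0.42, Ifih1 by −0.05 ± 0.56, Dhx58 by −0.28 ± 0.59 and Eif2ak2 by −0.14 ± 0.44, with 95% intervals of −0.64 to 1.31, −1.36 to 1.25, −1.64 to 1.08 and −1.15 to 0.88. An effect in 18-81 of the size measured in 70Z/3 lies inside the intervals of Ddx58, Ifih1 and Eif2ak2 and outside that of Dhx58.

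The effects were also set against each other across the lines. No member and no gene passed the test of the difference between the miR-125b effects (0% of 18790; 606 genes had an unadjusted p under 0.05). Dhx58 came nearest, with an effect 2.18 ± 0.83 log2 units smaller in 18-81 than in 70Z/3 (limma unadjusted p = 0.0312, adjusted p = 0.941). The values for Ddx58 and Ifih1 were −0.82 ± 0.60 and −0.94 ± 0.80.

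**Figure D3:**
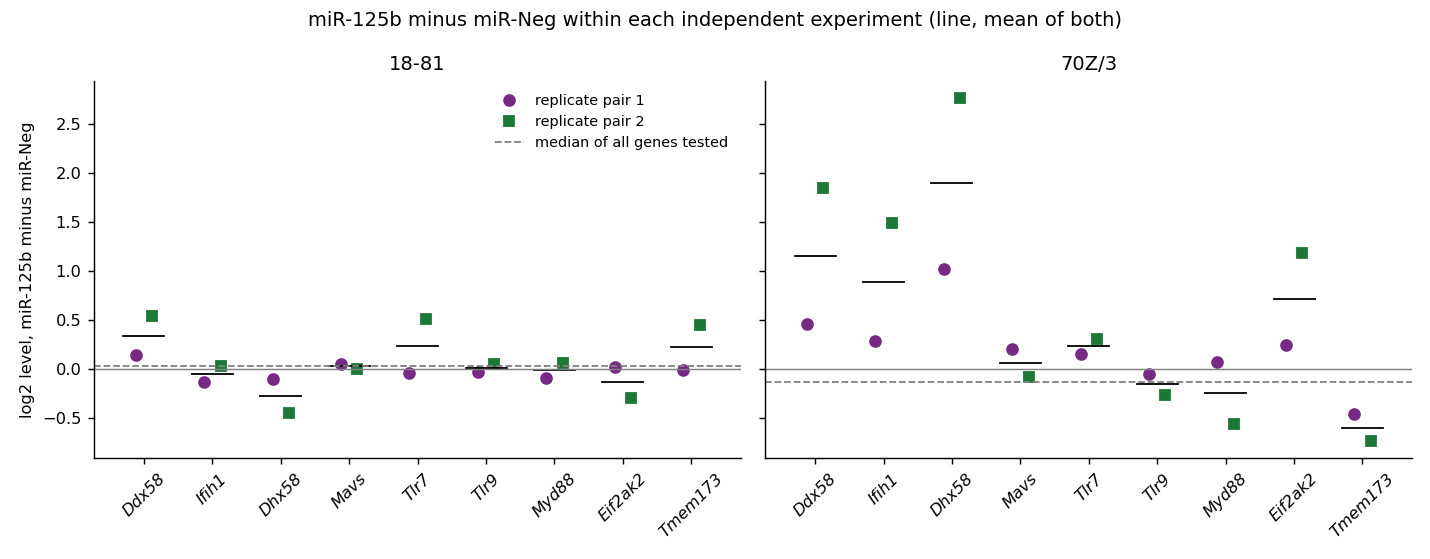
Difference in log2 level, miR-125b minus miR-Neg (y axis), in each replicate pair of 18-81 (left) and 70Z/3 (right) for the 9 genes tested. Circles are pair 1, squares pair 2, short bars their mean and dashed lines the median of all genes (0.03 in 18-81, −0.13 in 70Z/3); Dhx58 reaches 1.02 and 2.77 in 70Z/3 and −0.11 and −0.45 in 18-81.

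Of the 10 genes, Ddx58, Ifih1 and Tlr7 carried 2 probes each, and the probes did not always tell the same story. The second Ddx58 probe (chr4:40151133-40151192) lies 760 bases downstream of the first. It read −4.77 and −5.16 in 18-81 with miR-125b, −5.54 and −4.66 in 18-81 with miR-Neg, −1.65 and −1.11 in 70Z/3 with miR-125b and −2.69 and −4.10 in 70Z/3 with miR-Neg. No 18-81 array was well above background, and replicate 2 of 70Z/3 with miR-Neg was not either. In a fit over all 25314 probes that passed the filter, no probe passed for miR-125b in 70Z/3. In pair 1, where both 70Z/3 arrays were above background, the second probe differed by 1.04 and the first by 0.45, and in pair 2 the miR-Neg array was not well above background at the second probe. The level in 18-81 was at least 4.07-fold lower.

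The second Ifih1 probe (chr2:62434960-62435019), 547 bases downstream of the first, read −6.99 and −6.56 in 18-81 with miR-125b, −6.91 and −6.54 in 18-81 with miR-Neg, −3.24 and −3.91 in 70Z/3 with miR-125b and −3.96 and −5.80 in 70Z/3 with miR-Neg. It was above background only in 70Z/3, on 3 of the 4 arrays, and at least 1.14-fold lower in 18-81.

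At Tlr7 the probes disagreed in size. The second probe (chrX:163743146-163743205), 283 bases upstream of the first, read −6.59 and −6.16 in 18-81 with miR-125b, −6.51 and −6.11 in 18-81 with miR-Neg, 1.51 and 1.49 in 70Z/3 with miR-125b and 0.10 and 0.48 in 70Z/3 with miR-Neg. It was well above background on no array of 18-81 and on all 4 of 70Z/3, and at least 39.5-fold lower in 18-81, against 3.61-fold at the first probe, which was well above background on all 8 arrays. The miR-125b difference in 70Z/3 was 1.21 ± 0.31 at the second probe (unadjusted p = 0.00461, adjusted p = 0.736), with 1.41 and 1.01 in the pairs, against 0.23 at the first. Unlike the helicases, this difference was not larger in pair 2. Which transcripts each probe reads was not tested.

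**Figure D4:**
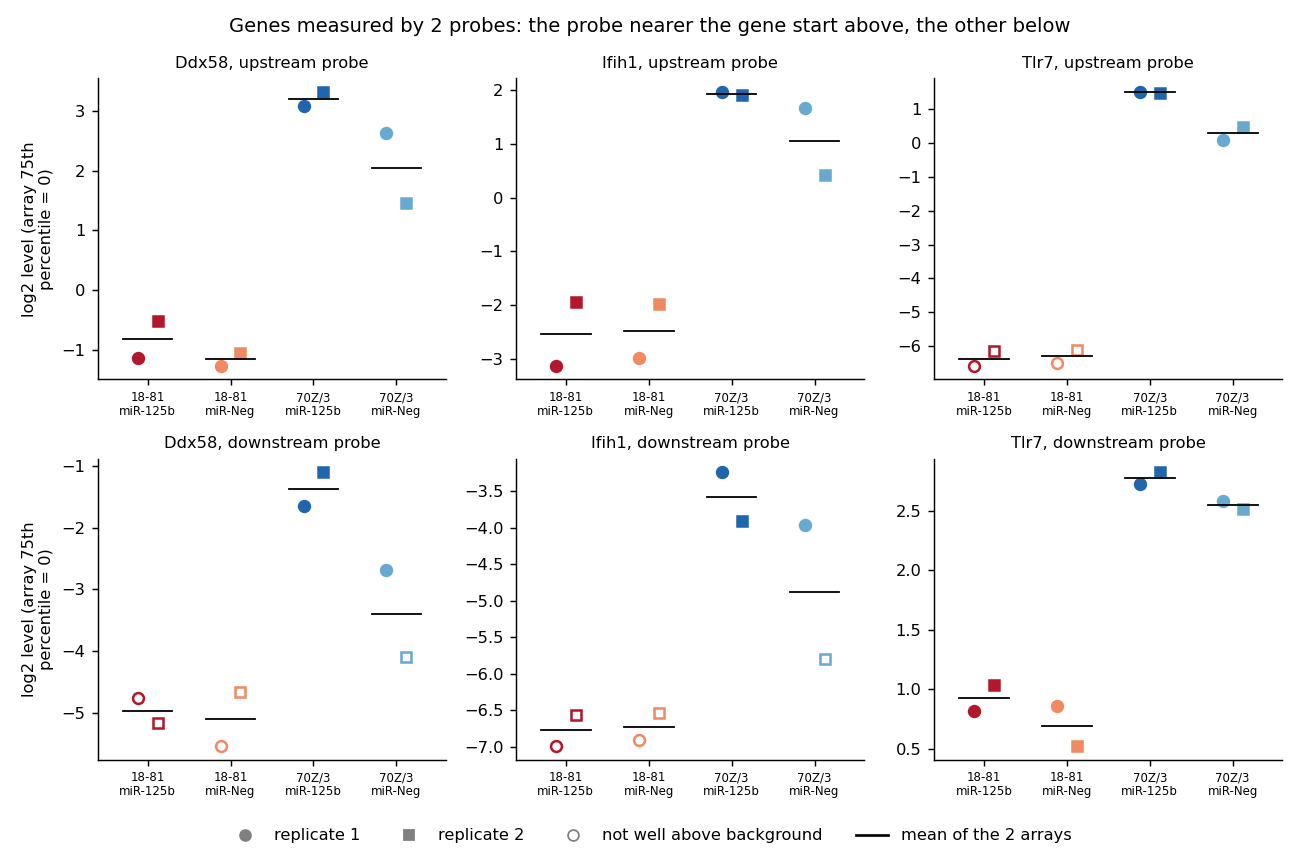
Log2 level on the 8 arrays (y axis, own range per panel) at both probes of Ddx58, Ifih1 and Tlr7 in 18-81 and 70Z/3 with miR-125b and miR-Neg (x axis), the probe nearer the gene start above. Open marks are not well above background, and bars are means of 2 arrays; the upstream Tlr7 probe is open on all 18-81 arrays, where the downstream one is filled.

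Genes whose pattern over the 8 arrays was most like the mean of Ddx58, Ifih1 and Dhx58 were Zan (Pearson r = 0.9997), A730009E18Rik (0.9994), Pde7b (0.9986), Oasl2 (0.9981) and Anks1 (0.998). The measure is mostly the difference between the lines, and the first 4 averaged between −6.73 and −6.36 in 18-81, near the background of the arrays. For Tlr9 the closest reported here were Zap70 (0.9877), Cdkn3 (0.9839), Def8 (0.9826) and Tmem19 (0.9819). Arrays of a group and line share their cells, so these are descriptions over 8 arrays and not tests. Among the members themselves, Ddx58 correlated with Ifih1 at 0.988 and with Mavs at −0.949, Dhx58 with Eif2ak2 at 0.969, and Tlr9 with Tmem173 at 0.935. Tlr9 ranged only from 0.83 to 1.27 over the arrays. Tlr9 and Tmem173 were both highest on replicate 2 of 70Z/3 with miR-Neg, the dimmest array. Both were lowest on replicate 2 of 18-81 with miR-Neg.

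The rest of the pathway was read from 5 lists. Of 25 genes that carry the signal from sensors to transcription, all were tested, and 2 were higher and 7 lower in 18-81 (median −0.18). Rnf125, a ubiquitin ligase known in human cells to mark RIG-I for degradation, was at least 54.9-fold lower in 18-81, with no 18-81 array above background. Irf7, the interferon-induced factor that amplifies interferon transcription, was at least 9.93-fold lower, likewise with no 18-81 array above background. Irf5 was lower by −2.05 ± 0.34 (limma adjusted p = 0.00225). The factor directly downstream of MAVS, Irf3, had mean levels of 5.24 and 5.19 in 18-81 with miR-125b and miR-Neg and 5.04 and 5.48 in 70Z/3 with miR-125b and miR-Neg, and the kinase Tbk1 1.35, 1.51, 1.17 and 1.11 in the same order. Both were well above background on all 8 arrays, as was Unc93b1, the chaperone that brings TLR7 and TLR9 to endosomes.

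Of 22 other nucleic acid sensors 20 were tested, with 1 higher and 6 lower in 18-81 (median −0.27). Cgas, the enzyme that makes the messenger for STING from cytosolic DNA, was at least 63.1-fold lower in 18-81. None of its 3 probes was well above background on any 18-81 array, so 18-81 held the RNA of STING without a measurable level of this sensor. Oasl1 was lower by −8.77 ± 0.22 (limma adjusted p = 9.8e-08). Oasl2 was at least 15.7-fold lower, with no 18-81 array above background. Ddx60 and Tlr8 were above background on no array.

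Of 16 genes that bind double-stranded RNA or limit nucleic acids, 2 were higher and 3 lower in 18-81 (median −0.21). Samhd1, which degrades nucleotides, was lower by −1.16 ± 0.18 (limma adjusted p = 0.00146), and Dicer1, the enzyme that cuts microRNA precursors, was higher by 0.64 ± 0.18 (adjusted p = 0.0268). Adar, the RNA editing enzyme that keeps self RNA from MDA5, was lower by −1.53 ± 0.25 at its brightest probe (adjusted p = 0.00204), but its other probe read 1.47 higher in 18-81, so no direction is given for the gene. Nlrx1 of the signalling list likewise differed between its probes, with −0.36 at the brightest over all arrays, while the other was above background on all 4 arrays of 70Z/3 and on no 18-81 array.

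Of 15 genes for interferons, their receptor and its signalling 13 were tested, with 1 higher and 5 lower in 18-81 (median −0.39). Socs1, the brake on JAK kinases, was higher by 6.83 ± 0.28 (limma adjusted p = 5.86e-07). Usp18, the interferon-induced protease that blocks the receptor, read lower. Since only 1 of the 4 arrays of 18-81 measured it above background, no size is given. The kinase Jak1 was lower by −1.19 ± 0.21 (limma adjusted p = 0.00284). Ifnb1 and Ifna4, among the first transcripts that sensing switches on, were above background on no array, while the probe named Ifna1, of a multigene family whose copies one probe may not tell apart, was above background on all 8 (mean −2.95 in 18-81 and −3.04 in 70Z/3).

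Of 9 surface Toll-like receptors and their partners 6 were tested, with 1 higher and 4 lower in 18-81 (median −1.55). Tlr2 was at least 20.7-fold lower, with no 18-81 array above background. Cd180 was lower by −2.62 ± 0.37 (limma adjusted p = 0.000903) and Tlr6 by −1.60 ± 0.28 (adjusted p = 0.00292). Read against the 31.7% of all genes that passed, the called shares of the first 4 lists were 9 of 25, 7 of 20, 5 of 16 and 6 of 13, and that of the surface receptors 5 of 6.

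With miR-125b against miR-Neg no gene of the 5 lists passed in either line. In 70Z/3 the list medians relative to all genes were 0.14 for signalling, 0.30 for the other sensors, 0.06 for double-stranded RNA binding and control, 0.41 for the interferon axis and −0.13 for the surface receptors. The smallest unadjusted p in these lists belonged to Oas2 (0.0117), Traf6 (0.0141), Rnaseh2b (0.0141), Oasl1 (0.0156), Irf7 (0.0172) and Irf9 (0.0175), with limma adjusted p of 0.757 or 0.761. Of these, Oas2 and Irf7 were well above background on only 1 of the 2 miR-Neg arrays. Traf6, the ubiquitin ligase below MyD88, differed by −0.88 ± 0.28 at its brightest probe and by 0.21 at its other probe. Among the others named by the same rule, Usp18 differed by 2.70 ± 0.93, Oasl2 by 2.14 ± 0.73, Stat2 by 0.94 ± 0.33, Tarbp2 by −0.93 ± 0.36, Traf3 by −0.74 ± 0.31, Stau1 by 0.55 ± 0.25 and Ly96 by −0.72 ± 0.45, with adjusted p from 0.769 to 0.773. Irf9, the DNA-binding part of the interferon-activated STAT complex, differed by 1.58 ± 0.53, with 0.68 in pair 1 and 2.49 in pair 2. The pairs gave 1.96 and 3.44 in Usp18 and 1.01 and 3.26 in Oasl2. Of the genes named here for 70Z/3, all but Traf6 and Traf3 had the larger size in pair 2. In that pair the miR-Neg array was the dim one. In 18-81 the list medians lay between −0.09 and 0.05 of that of all genes, and the lowest unadjusted p of 4 lists were those of Nlrx1 (0.42 ± 0.28), Cgas (0.96 ± 0.30, with no 18-81 array above background), Ifna1 (0.62 ± 0.32) and Tlr6 (−0.24 ± 0.40), all with a limma adjusted p of 1.

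**Figure D5:**
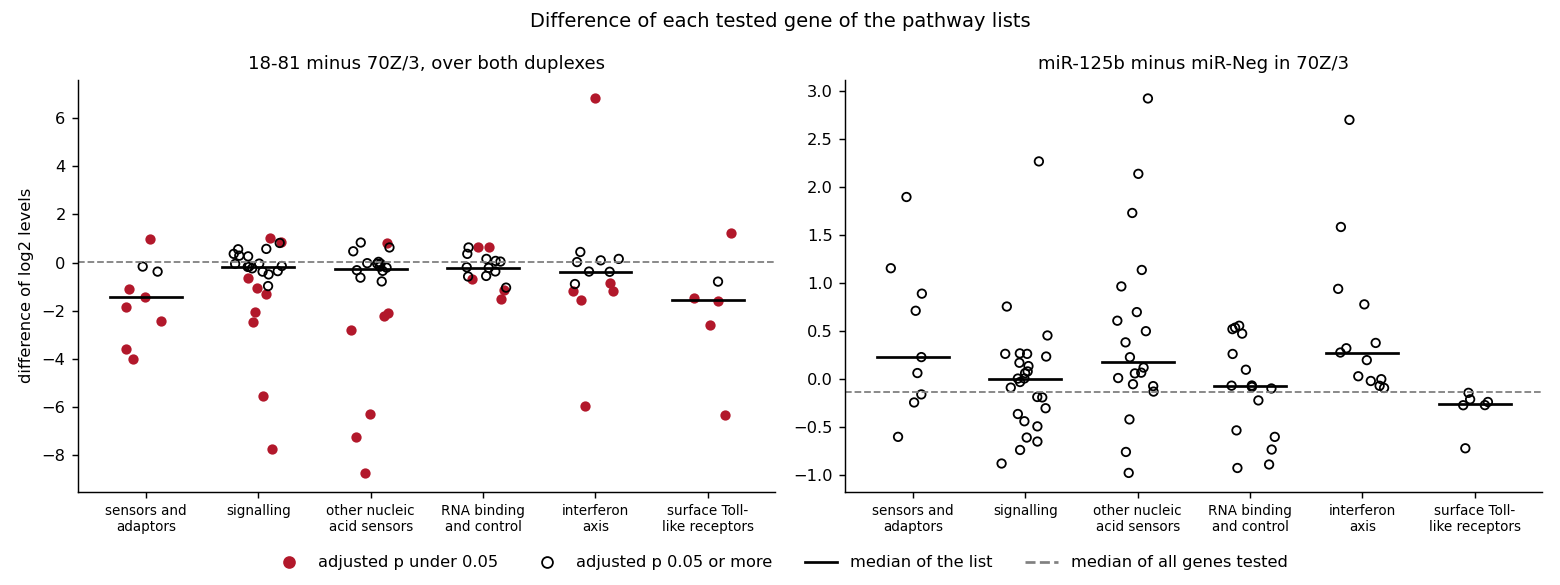
Difference in log2 level of each tested gene (y axis) for 18-81 minus 70Z/3 over both duplexes (left) and miR-125b minus miR-Neg in 70Z/3 (right), for the sensors and adaptors and 5 lists of their pathway (x axis). Filled points passed the adjusted threshold, bars are list medians and dashed lines the median of all genes; filled points occur only in the left panel.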

How the data were processed

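RNA of 8 samples was measured on 1-colour Agilent mouse arrays of 1 slide, on which a row holds 1 replicate number and a column 1 group. Per the file headers, intensity was read and processed with Agilent Feature Extraction 10.7.3.1 and deposited as background-corrected intensity per spot, with probe positions on mm9; the deposited series table of the authors holds linear values of the same arrays and entered as log2 in an alternative. Here log2 intensity was set relative to the 75th percentile of each array's 59305 non-control spots, 140 to 203 outlier spots per array were left out, spots of a probe were averaged, and the brightest probe stood for its gene. Genes with a probe well above background on both arrays of a group (18791) were fitted with 4 group means in limma 3.58.1 (R 4.3.3), two-sided, with Benjamini-Hochberg adjustment and a threshold of 0.05. A p-value therefore rests on the spread between the 2 arrays of a group, pooled over the 4 groups and moderated over all genes. The number of arrays limits the precision. "At least N-fold" sets the brighter group's mean against the higher of a dim probe's own signal and the lowest signal well above background. Replicates with the same number deviated together (r 0.374 to 0.648 over 6 pairs of groups) and the study's design names independent experiments, so the numbers pair the samples; the fit reported has no block. Alternatives changed background correction, scaling, filter, probe rule, variance model and block, and left out each array. The fit was tested on simulated data. The 10 members, the 5 context lists and the 9 marker lists were chosen with earlier results of these data known. Named from these lists were, per comparison, the 3 genes with the smallest unadjusted p, and by likeness the 5 genes with the highest correlation; genes named beside them (Irf3, Tbk1, Unc93b1, Ifnb1, Ifna4, Ddx60, Tlr8) were chosen after their values were seen. A few of the genes so named are not reported here.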

Additional observations from a re-analysis of the deposited data

How the results depend on the processing

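Of 918 values of single members under 17 alternatives each, 873 kept their side of the threshold, 42 lost the call (all of them of Mavs, Myd88 or Eif2ak2 between the lines), and 3 gained it. The sign changed in 35 of the 918 values, none of them past the threshold in either setting (smallest adjusted p 0.767) and all from a reported difference of at most 0.25 in size, so the direction of such small differences is not settled. Over both duplexes the calls of Ddx58, Ifih1, Dhx58, Mavs, Tlr7 and Myd88 held under all 17, with adjusted p up to 0.0443, and Eif2ak2 lost its call under 7. Averaging all probes of a gene moved the Tlr7 difference between the lines to −4.54, with a probe that was well above background on no 18-81 array in the average. No value exists for Tlr3 in the reported fit; without replicate 2 of 70Z/3 with miR-Neg or of 70Z/3 with miR-125b it passed the filter through the remaining 70Z/3 array alone, and since no 18-81 array measured it the bound in the report is what these arrays give.

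Counts of all genes moved in some settings. With normexp background correction 1 gene passed in 70Z/3. Keeping only probes well above background on all 8 arrays left 3513 genes between the lines over both duplexes, 1868 with miR-Neg and 1722 with miR-125b, because fewer genes were tested. The median of the members relative to all genes in 70Z/3 was 0.53 with no filter and 0.83 with the mean of probes, against 0.36; in the first the median of all genes was −0.38, and the second includes the dim probes of Ddx58, Ifih1 and Tlr7. The median of all genes in 70Z/3 was −0.13 as reported, −0.17 with normexp, −0.01 after quantile normalization, 0.00 in the authors' series table and 0.05 with the percentile over detected probes, so differences there are best read relative to it.

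Since the numbers pair the samples, a replicate block was fitted: 9031 genes then passed between the lines over both duplexes, 6826 with miR-Neg and 6763 with miR-125b, no gene passed for miR-125b in either line, and of the members' calls only that of Myd88 with miR-125b changed.

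Leaving out single arrays, where the lone array of a group is assumed to vary like the others, gave 0 to 206 genes for miR-125b in 70Z/3, 0 to 75 in 18-81 and 0 to 30 for the difference of effects, and 0 to 1 member in 70Z/3. Members past the threshold between the lines with miR-Neg numbered 3 to 6. The upper end of that count came without replicate 2 of 70Z/3 with miR-Neg, and it includes Tlr3. Tlr3 entered that fit through a single 70Z/3 array and was well above background on no 18-81 array, so its place in the count shows no measured difference. The relative median of the members ranged from 0.17 to 0.53 in 70Z/3 and from −0.18 to 0.18 in 18-81.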
